A study of Mus musculus with 10 samples.

Results

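The comparison of E17 with E15.5 set ribosome footprints of the mouse neocortex late in neurogenesis, when glia begin to appear, against those taken 1.5 days earlier. Its genes were those whose footprints in the E15.5 libraries, or in the E17 libraries, summed to 32 or more, which held for 12488 of the 22373 genes in the footprint table. Of these, 11984 reached that sum at both stages, 92 at E15.5 only and 412 at E17 only. At the limit itself, 32 genes had a larger stage sum of exactly 32 footprints and 44 genes had 31. Ribo-seq sequences the mRNA fragments that ribosomes protect from nuclease, so a gene's footprint count follows both the amount of its mRNA and how densely ribosomes occupy it, and the counts used here do not separate these.

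The study collected neocortex from timed-pregnant wild-type mice at E12.5, E14, E15.5 and E17 of gestation and from pups at P0, with 2 libraries per stage, or 10 in all, of which 4 belong to E15.5 and E17. Each library was made from neocortex subdissected from a pool of brains of both sexes and digested with RNase T1 and RNase A, and ribosomes had not been stalled with cycloheximide. The p-values given below therefore measure the spread between pools, not between embryos. All cell types of the dissected tissue were lysed together, so fewer cells of a type and less footprint per cell cannot be told apart. The E15.5 libraries held 31313156 and 22441862 footprints and the E17 libraries 28756045 and 23922339.

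In late gestation the radial glia that line the ventricle have already made the deep-layer neurons and finish making the upper-layer neurons, directly or through intermediate progenitors. They then turn to astrocytes and oligodendrocyte precursors, while neurons born earlier extend axons, settle in their layers and begin to assemble channels and synapses. Genes of DNA replication and mitosis are read out mainly in dividing cells, and genes of synapses mostly in neurons that have stopped dividing, so both kinds are commonly used to follow this transition.

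Levels are given as CPM, the count of a gene scaled to the size of its library with the trimmed mean of M-values (TMM), and values of E15.5 and E17 follow the order of replicates 1 and 2. A gene was called when it passed a Benjamini-Hochberg adjusted p of 0.05 and changed by at least 25%, as the ratio of the higher to the lower stage, in limma-voom fitted to all 10 libraries. Of 13484 genes tested in that fit, 1219 (9.04%) were called between E15.5 and E17, 757 (5.61%) higher and 462 (3.43%) lower at E17, and 1217 of the 1219 met the 32-footprint limit. The median called rise was 0.85 on the log2 scale and the median called fall -0.69. Changes of at least 2-fold were more often rises, with 253 genes against 54. Of the called genes, 47 reached 32 footprints at only 1 of these stages, and more genes did so at E17 only (412) than at E15.5 only (92). How many of the 2-fold changes were in such genes was not counted. The 4 libraries did not overlap for any called gene: both libraries of one stage lay above both of the other. This adds no support to the calls, which were made on the same values. Genes without a call separated in this way as well, among them Bcl11b, Eif4ebp1 and Hivep2. The share of all genes tested that separated is not given here, so separation does not set called genes apart.

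**Figure D1:**
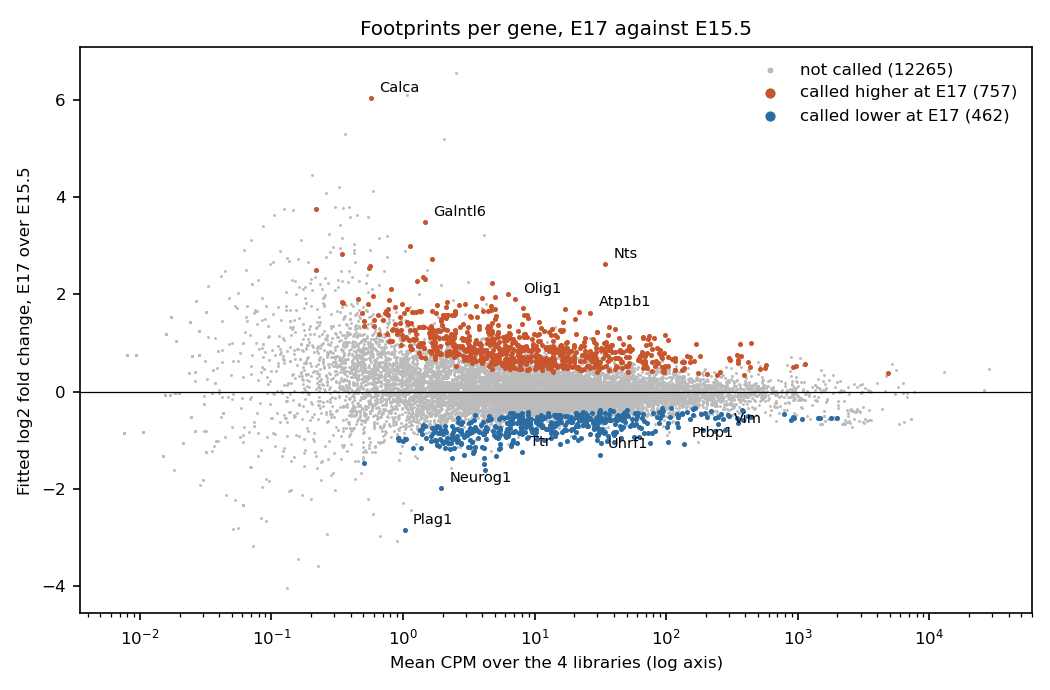
Fitted log2 fold change of E17 over E15.5 for each gene tested (y axis) against its mean CPM over the 4 libraries (x axis, log scale), with called genes in colour. The 757 called rises reach further from 0 than the 462 called falls, and Calca, listed at 0 at E15.5, has the highest fitted value among called genes.

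These calls rest on 2 libraries per stage. No gene was called by limma-voom when E15.5 replicate 1, E15.5 replicate 2 or E17 replicate 2 was left out, with 2048, 2230 and 2318 genes at an unadjusted p under 0.05, and 18 were called without E17 replicate 1. The P0 libraries differed from each other more than those of any other stage, with an SD of the log2 ratio of 0.54 over 4559 genes against 0.13 at E15.5 and 0.14 at E17, and they enter the shared estimate of spread. A fit of the E15.5 and E17 libraries alone called 3267 genes with limma-voom, 3244 with edgeR and 1930 with DESeq2, and 1217 of the 1219 genes were among those of limma-voom. In that fit of 4 libraries, 15.0% of genes were called higher and 11.1% lower. Counts of called genes are given below from the fit of all libraries, followed where useful by those of the 4 libraries. Each count is to be read against the share of all genes called that way, 5.61% higher and 3.43% lower with all libraries.

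**Figure D2:**
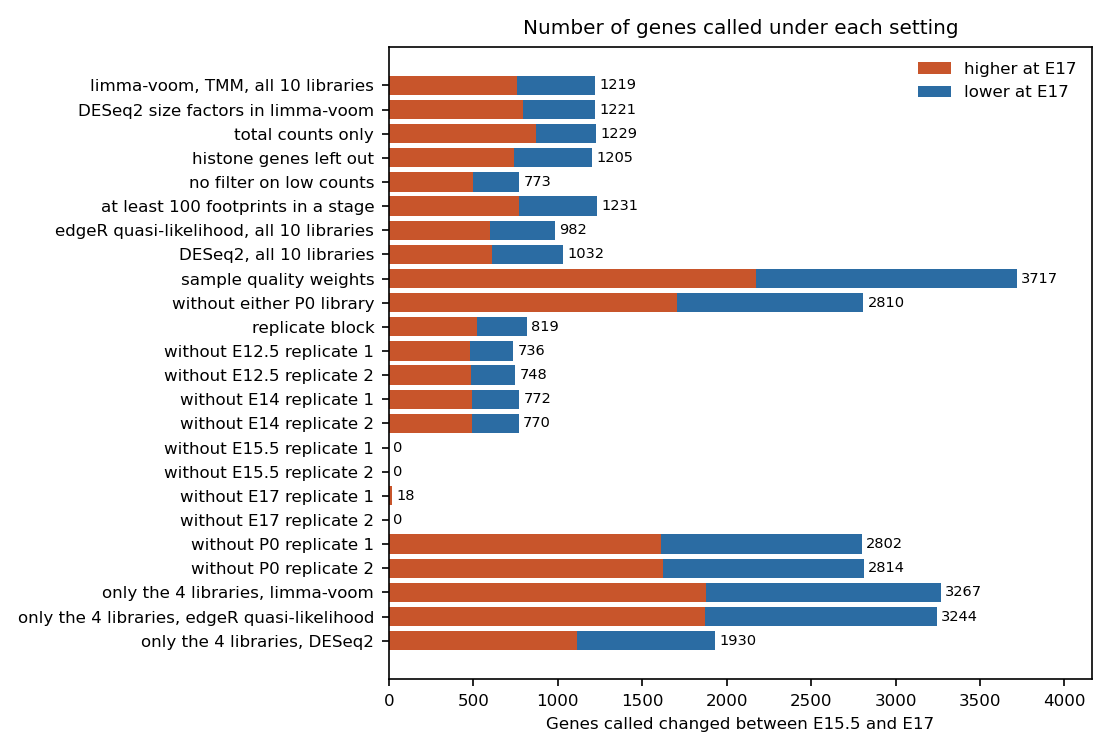
Number of genes called between E15.5 and E17 under each setting (x axis), split into those higher and lower at E17. The count was 1219 in limma-voom with all libraries, 0 to 18 when 1 library of E15.5 or E17 was left out, and 2802 or more when a P0 library was left out.

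Genes of DNA replication and mitosis fell together between E15.5 and E17. Of 42 S phase genes, 27 were called lower and 0 higher, and of 42 mitosis genes, 35 were called lower and 0 higher, against 3.43% of all genes called lower. All 84 fitted values lay below 0, with medians of -0.65 for S phase and -0.81 for mitosis on the log2 scale, where the median over all genes tested was -4.56e-05. In the fit of 4 libraries, 35 of 41 S phase genes and 41 of 42 mitosis genes were called lower. The summed level of the mitosis list was 1171 and 1132 CPM at E15.5 and 712 and 636 CPM at E17.

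Among S phase genes, Uhrf1, which carries DNA methylation through replication, was at 44.4 and 44.5 CPM at E15.5 and at 18.2 and 18.1 CPM at E17, a 2.45-fold fall (log2 fold change -1.29 ± 0.15 SE, limma adjusted p = 0.00743). Cdc6, which loads the replicative helicase onto origins, was at 7.50 and 7.52 and then 3.52 and 3.19 CPM, a 2.23-fold fall (adjusted p = 0.0122). Mcm5, a subunit of that helicase, was at 41.7 and 37.6 and then 21.1 and 18.6 CPM, a 2.0-fold fall (adjusted p = 0.0145). In each of these genes replicates differed far less than the stages, and both E17 libraries lay below both E15.5 libraries, as in every gene called lower. All 6 subunits of the helicase, Mcm2 to Mcm7, were called lower, by -0.76 to -1.06 on the log2 scale. Pcna, the sliding clamp of replication, was at 124 and 136 CPM and then 95.1 and 94.0 CPM and was not called (adjusted p = 0.101).

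Among mitosis genes, Hmmr, a spindle-associated hyaluronan receptor, was at 3.62 and 3.84 CPM at E15.5 and at 1.59 and 1.99 CPM at E17, a 2.10-fold fall (adjusted p = 0.0142). Bub1b, a spindle checkpoint kinase, was at 4.55 and 4.48 and then 2.16 and 2.22 CPM, a 2.06-fold fall (adjusted p = 0.00886). Ccnb1, cyclin B1, was at 82.3 and 79.3 and then 44.8 and 40.6 CPM, a 1.89-fold fall (adjusted p = 0.00743). Aurkb, the kinase of the chromosomal passenger complex, was at 24.1 and 22.7 and then 14.8 and 9.09 CPM. Its E17 libraries differed from each other more than those of the other mitosis genes named here, and its log2 fold change was -1.01 with all libraries (adjusted p = 0.0212) and -0.66 without E17 replicate 2, where it was not called (adjusted p = 0.0933). Cenpa, the centromeric histone variant, had the smallest fitted change of the list, -0.31, and was not called.

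Promoters of these cell-cycle genes are shown because every fitted value of their lists lay below 0. Cell-cycle promoters are known for E2F sites in S phase genes and for the cell-cycle genes homology region (CHR) beside CCAAT boxes in mitosis genes. The windows run from 250 bases before to 50 after the RefSeq start, 5′ to 3′ along the gene, in build GRCm38.p6. For the mitosis genes with the largest called falls and an entry in the promoter table, Hmmr (chr11:40733388-40733687, minus strand), Bub1b (chr2:118597961-118598260, plus strand) and Kif23 (chr9:61946750-61947049, minus strand), capitals mark TTTGAA or TTCGAA (the CHR letters) and CCAAT on either strand. For the S phase genes with the largest called falls among those whose window holds them, Uhrf1 (chr17:56304063-56304362, plus strand), Cdc6 (chr11:98907901-98908200, plus strand) and Mcm5 (chr8:75109259-75109558, plus strand), capitals mark the E2F letters TTTCCCGC, TTTGGCGC, TTTCGCGC or TTTGCCGC on either strand.
Hmmr: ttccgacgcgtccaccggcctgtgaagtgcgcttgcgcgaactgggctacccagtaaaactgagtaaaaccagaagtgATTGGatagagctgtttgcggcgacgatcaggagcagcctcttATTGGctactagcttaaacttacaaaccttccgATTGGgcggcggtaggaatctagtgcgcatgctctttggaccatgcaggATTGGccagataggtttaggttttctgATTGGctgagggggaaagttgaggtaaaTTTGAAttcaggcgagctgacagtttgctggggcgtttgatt
Bub1b: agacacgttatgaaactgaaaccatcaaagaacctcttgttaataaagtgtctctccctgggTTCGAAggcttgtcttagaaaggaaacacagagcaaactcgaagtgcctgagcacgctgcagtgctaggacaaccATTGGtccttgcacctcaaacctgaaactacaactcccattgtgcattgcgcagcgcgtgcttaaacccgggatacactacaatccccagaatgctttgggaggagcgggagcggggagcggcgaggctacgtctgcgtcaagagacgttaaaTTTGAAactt
Kif23: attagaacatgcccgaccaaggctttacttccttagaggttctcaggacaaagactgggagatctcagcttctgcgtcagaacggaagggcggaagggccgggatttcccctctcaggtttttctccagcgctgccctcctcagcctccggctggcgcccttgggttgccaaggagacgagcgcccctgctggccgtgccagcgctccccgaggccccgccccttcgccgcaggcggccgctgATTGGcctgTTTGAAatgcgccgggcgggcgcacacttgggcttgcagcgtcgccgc
Uhrf1: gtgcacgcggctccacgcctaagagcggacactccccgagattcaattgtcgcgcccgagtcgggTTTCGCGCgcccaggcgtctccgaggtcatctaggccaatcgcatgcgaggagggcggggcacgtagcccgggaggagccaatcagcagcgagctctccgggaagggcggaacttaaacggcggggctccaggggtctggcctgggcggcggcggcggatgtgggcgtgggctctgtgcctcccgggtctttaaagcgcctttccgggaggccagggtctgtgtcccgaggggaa
Cdc6: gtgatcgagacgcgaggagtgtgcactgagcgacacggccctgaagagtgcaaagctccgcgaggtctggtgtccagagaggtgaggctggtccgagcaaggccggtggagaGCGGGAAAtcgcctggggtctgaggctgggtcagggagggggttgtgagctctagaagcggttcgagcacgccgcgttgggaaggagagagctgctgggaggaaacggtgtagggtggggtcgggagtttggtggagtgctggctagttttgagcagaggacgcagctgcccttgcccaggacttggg
Mcm5: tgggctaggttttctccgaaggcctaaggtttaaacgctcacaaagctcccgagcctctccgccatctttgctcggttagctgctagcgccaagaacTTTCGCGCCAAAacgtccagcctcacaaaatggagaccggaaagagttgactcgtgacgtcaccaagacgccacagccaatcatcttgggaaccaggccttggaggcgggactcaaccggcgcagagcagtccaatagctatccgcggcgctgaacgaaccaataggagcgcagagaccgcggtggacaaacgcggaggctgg
The Hmmr window held 5 CCAAT matches, all on the strand opposite to the gene (printed as ATTGG), and 1 CHR match just past the start. In the Mcm5 window the 2 E2F matches overlapped. Uhrf1 had 2 windows, and a window that holds the E2F letters is shown. Promoters on 1 chromosome were left out when the genes shown were chosen.

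Over the windows of all genes tested, 13.7% of 13415 promoters held the CHR letters, 37.9% CCAAT, 5.69% both and 3.72% the E2F letters. Of 38 promoters of 36 mitosis genes, 29 held the CHR letters, 28 held CCAAT and 25 held both, while 2 held the E2F letters. Of 35 promoters of 30 S phase genes, 12 held the E2F letters and 5 the CHR letters. Across all genes called lower, 24.5% of 462 promoters of 356 genes held the CHR letters and 9.96% the E2F letters. For genes called higher these shares were 11.1% and 2.25% of 755 promoters of 528 genes. The genes called lower include the called members of the mitosis and S phase lists, so promoters of these are counted again here. All these shares are descriptions of the letters in these windows, and binding was not measured.

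Some progenitor genes fell as well. Of 18 radial glia genes, 7 were called lower and 1 higher, with a median of -0.49, and of 20 genes of intermediate progenitors and proneural factors, 8 were called lower and 1 higher, with a median of -0.46. Of all genes, 3.43% were called lower and 5.61% higher. The summed level of the radial glia list was 2223 and 2379 CPM at E15.5 and 2445 and 2568 CPM at E17, higher at E17 although the median was below 0, and Fabp7 held most of it. Pax6, a transcription factor of radial glia, was at 92.9 and 81.7 CPM at E15.5 and at 51.4 and 45.8 CPM at E17, a 1.80-fold fall (log2 fold change -0.84 ± 0.11 SE, adjusted p = 0.00743). Vim, the intermediate filament of radial glia, was at 358 and 351 and then 222 and 193 CPM, a 1.72-fold fall (adjusted p = 0.00866). Gli3 (log2 fold change -1.06), Sox3 (-1.0), Nr2e1 (-0.91) and Hes1 (-0.85), transcription factors of neural progenitors, and Nes (-0.50), the nestin filament, were also called lower. The remaining called gene of this list went up: Slc1a3, the glutamate transporter GLAST that radial glia share with astrocytes, was at 25.8 and 24.6 and then 44.7 and 45.3 CPM, a 1.79-fold rise (adjusted p = 0.00866). Sox2 was at 30.9 and 28.0 and then 25.4 and 24.3 CPM and was not called (adjusted p = 0.284). Fabp7, a fatty acid binding protein of radial glia and astrocytes, was at 1535 and 1722 and then 1972 and 2136 CPM and was not called with all libraries (adjusted p = 0.272), but was called higher in the fit of 4 libraries (adjusted p = 0.0197).

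Among genes of all lists, Neurog1, a proneural factor that commits progenitors to a neuronal fate, had the largest called fall. It was at 3.50 and 2.7 CPM at E15.5 and at 0.953 and 0.601 CPM at E17, from 116 and 64 to 30 and 16 footprints, a 3.96-fold fall (log2 fold change -1.99 ± 0.31 SE, adjusted p = 0.0123). Its relative Neurog2, far better covered, was at 46.7 and 39.3 and then 22.2 and 18.9 CPM, a 2.09-fold fall (adjusted p = 0.0154). Nhlh1, a basic helix-loop-helix factor of newborn neurons, fell by 1.36 on the log2 scale (adjusted p = 0.0394), and Eomes, which marks intermediate progenitors, was at 49.4 and 44.7 and then 26.6 and 23.5 CPM, a 1.88-fold fall (adjusted p = 0.0205). Neurod1, which acts later in the same sequence, fell less, 1.35-fold (adjusted p = 0.0384), and the fitted values of Neurod2 and Neurod6 were -0.18 and -0.16 without a call. Penk, the gene of the opioid peptide precursor proenkephalin, was the called rise of the list, from 12 and 6 to 29 and 28 footprints (adjusted p = 0.0253).

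Genes associated with outer or basal radial glia went the other way. Of 12 tested, 4 were called higher and 0 lower, against 5.61% of all genes called higher, with a median of 0.67. In the fit of 4 libraries 8 were called higher, against 15.0% of all genes. Tnc, the matrix glycoprotein tenascin C, was at 6.81 and 7.22 CPM at E15.5 and at 16.4 and 16.8 CPM at E17, a 2.37-fold rise (log2 fold change 1.24 ± 0.19 SE, adjusted p = 0.0116). Lifr, the receptor for leukaemia inhibitory factor, whose signalling drives astrocyte formation, was at 1.66 and 1.6 and then 3.30 and 3.23 CPM (adjusted p = 0.0180), and Ptprz1, a receptor phosphatase of glia, was at 35.3 and 33.5 and then 54.3 and 55.0 CPM (adjusted p = 0.0116). Slco1c1, a thyroid hormone transporter, had the smallest SE (0.12) of the 12 largest rises described below, at 7.59 and 8.40 and then 25.6 and 26.1 CPM (adjusted p = 0.00233). It is also an endothelial gene and is counted in both lists. Tnc is counted in the astrocyte list too, and Lifr in that of gliogenic signals and factors, so these rises are not particular to basal radial glia. Hopx, a homeodomain protein of the basal radial glia list, was at 70.0 and 59.5 and then 55.4 and 72.6 CPM, with the stages overlapping (adjusted p = 0.949).

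Astrocyte genes rose in part. Of 27 tested, 10 were called higher and 0 lower, against 5.61% of all genes called higher, with a median of 0.76. In the fit of 4 libraries 15 of 25 were higher and 3 lower, against 15.0% and 11.1% of all genes. Apoe, the lipid carrier of astrocytes and microglia, was at 63.3 and 58.0 CPM at E15.5 and at 131 and 139 CPM at E17, a 2.23-fold rise (log2 fold change 1.16 ± 0.12 SE, adjusted p = 0.00657). Sparcl1, which astrocytes secrete and which promotes synapse formation, was at 9.52 and 9.12 and then 23.1 and 21.4 CPM, a 2.38-fold rise (adjusted p = 0.00743). Slc1a2, the glutamate transporter GLT-1, was at 9.67 and 9.08 and then 17.9 and 18.3 CPM, a 1.92-fold rise (adjusted p = 0.0145). In all 3 genes the replicates of a stage lay close together, and both E17 libraries lay above both E15.5 libraries, as in every gene called higher. Hepacam, an adhesion molecule of astrocyte end-feet, rose from 14 and 12 to 87 and 54 footprints (adjusted p = 0.0390). Markers of mature astrocytes were still thinly covered at E17: Gfap had 20 and 30 footprints, Aqp4 7 and 9 and S100b 8 and 11, and none of them was called with all libraries (adjusted p = 0.0766, 0.121 and 0.213). The fitted values of Sox9, Aldoc, Mt1, Fgfr3, Ndrg2, Mt2 and Glul lay below 0, without a call.

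Oligodendrocyte lineage genes held some of the largest rises of the comparison, from low levels. Of 16 tested, 6 were called higher and 1 lower, against 5.61% and 3.43% of all genes, with a median of 0.52. Olig1 and Olig2, transcription factors that set up this lineage, were at 2.83 and 3.12 CPM and 2.29 and 2.32 CPM at E15.5 and at 9.72 and 12.8 CPM and 6.54 and 8.71 CPM at E17. Olig1 rose 3.74-fold (log2 fold change 1.90 ± 0.31 SE, adjusted p = 0.0142) and Olig2 3.24-fold (1.70 ± 0.36, adjusted p = 0.0272). Pdgfra, the growth factor receptor of oligodendrocyte precursors, was at 2.23 and 2.74 and then 5.68 and 6.65 CPM, a 2.50-fold rise (adjusted p = 0.00797). In these 3 genes the stages did not overlap, as in every called gene. Gpr17, a receptor of committed precursors, had 1 and 4 footprints at E15.5 and 17 and 17 at E17. It was called (log2 fold change 2.84, adjusted p = 0.0316), but the value was 1.66 without E15.5 replicate 1, where it was not called (adjusted p = 0.264). Sox10, the lineage factor downstream of Olig2, was at 0.904 and 0.887 and then 0.984 and 1.31 CPM and was not called (adjusted p = 0.639), and the myelin genes Mag and Mog did not reach the filter at any stage. Myt1, a zinc finger factor of precursors and newborn neurons, was the called fall, from 25.2 and 23.2 to 15.1 and 13.2 CPM (adjusted p = 0.0159).

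**Figure D3:**
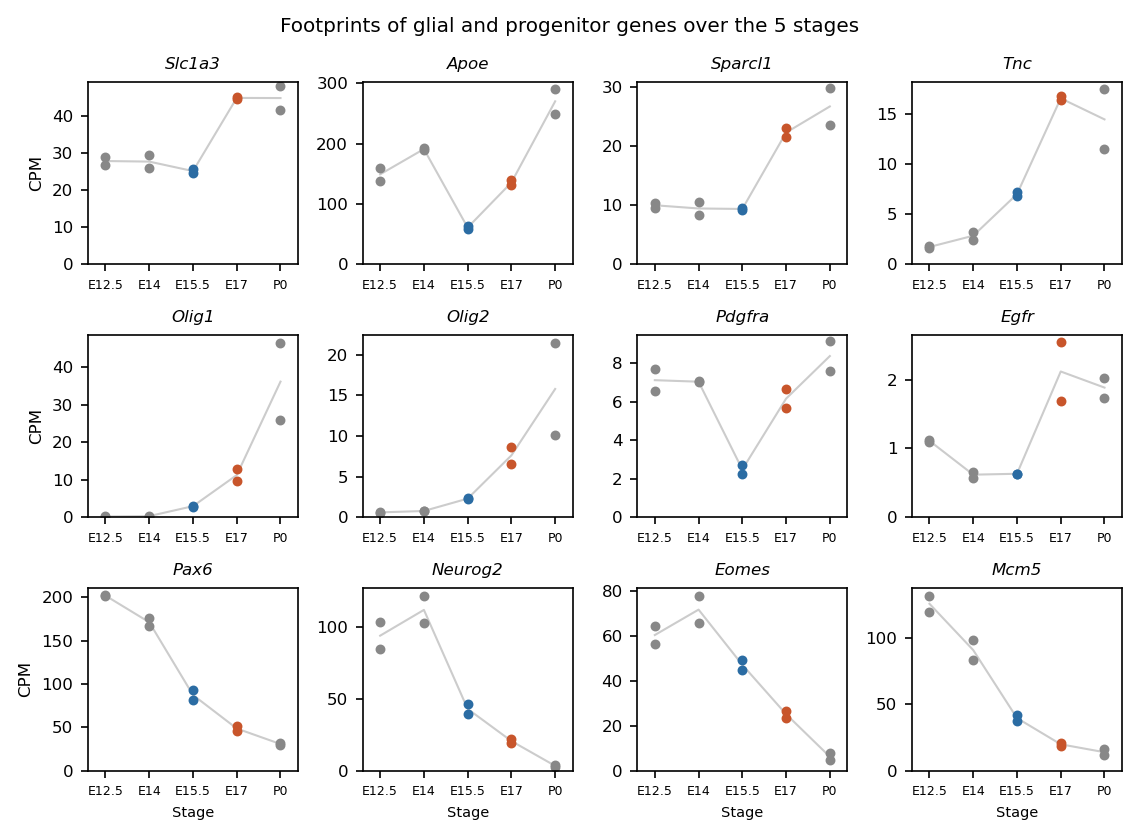
CPM of 12 glial and progenitor genes (y axis, from 0) in each of the 10 libraries, by stage (x axis), with lines through the stage means, E15.5 in blue and E17 in orange. Olig1, Olig2 and Tnc were lowest at E12.5 and E14, Apoe and Pdgfra were lower at E15.5 than at both E14 and E17, and Pax6 and Mcm5 were lower at each later stage.

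Signals and factors that promote gliogenesis did not move together. Of 27 tested, 2 were called higher and 3 lower, against 5.61% and 3.43% of all genes. The median was 0.01, and its sign changed under 8 of the other settings. Egfr, the epidermal growth factor receptor of late progenitors, was at 0.633 and 0.633 CPM at E15.5 and at 1.68 and 2.55 CPM at E17, from 21 and 15 to 53 and 68 footprints (log2 fold change 1.67 ± 0.29 SE, adjusted p = 0.0157). Against this, the nuclear factor I genes Nfib, Nfia and Nfix, which open astrocyte genes in progenitors and are also abundant in neurons, fell or did not change beyond the test. Nfib was at 1129 and 1087 and then 790 and 745 CPM, a 1.44-fold fall (adjusted p = 0.0253), and Nfia at 304 and 276 and then 208 and 195 CPM, also 1.44-fold (adjusted p = 0.0147). Nfix was at 974 and 998 and then 939 and 966 CPM and was not called (adjusted p = 0.888). Nfib and Nfia fell, then, while Nfix of the same family was not called, and a test between these genes was not made.

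Genes of neuronal layers changed in few members. Of 19 upper-layer genes, 1 was called higher and 0 lower, near the 5.61% of all genes called higher, with a median of 0.41. In the fit of 4 libraries 8 were higher and 1 lower, against 15.0% and 11.1% of all genes. Lmo4, a LIM-only transcriptional cofactor, was at 267 and 283 CPM at E15.5 and at 431 and 491 CPM at E17, a 1.67-fold rise (log2 fold change 0.74 ± 0.15 SE, adjusted p = 0.0221). Mef2c, a factor of neuronal maturation, was at 853 and 910 and then 1240 and 1360 CPM, higher in both E17 libraries but not called with all libraries (adjusted p = 0.0653). Of 19 deep-layer genes, 2 rose and 2 fell, against 5.61% and 3.43% of all genes, with a median of 0.17. Ntsr1, the neurotensin receptor of layer 6 neurons, rose 2.02-fold, from 12.2 and 11.1 to 23.8 and 23.5 CPM (adjusted p = 0.0392), and Foxp1 rose 1.45-fold (adjusted p = 0.0386). Fezf2, which specifies subcortical projection neurons, was at 28.0 and 27.6 and then 19.2 and 18.02 CPM, a 1.49-fold fall (adjusted p = 0.0482), and Sox5 fell 1.47-fold, from 186 and 174 to 127 and 117 CPM (adjusted p = 0.0210). The early specification factors Tbr1 and Bcl11b also had fitted values below 0, -0.58 and -0.64, but were not called with all libraries (adjusted p = 0.0654 and 0.0943). Both were called lower in the fit of 4 libraries.

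Of 15 genes of the subplate and of Cajal-Retzius cells, the earliest-born neurons of the cortex, 4 were called higher and 0 lower. Ccn2, formerly Ctgf and a marker of the subplate, had 37 and 30 footprints at E15.5 and 96 and 74 at E17, a 2.46-fold rise (adjusted p = 0.0211). Reln, the extracellular guide of layering, was at 15.3 and 14.1 and then 20.7 and 22.5 CPM, a 1.47-fold rise (adjusted p = 0.0437). Interneuron genes, whose cells migrate in from the ganglionic eminences, had 2 of 22 called higher and 0 lower, near the 5.61% of all genes. In the fit of 4 libraries 8 of 22 were higher and 2 lower, against 15.0% and 11.1% of all genes. Npy, neuropeptide Y, was at 45.0 and 50.04 and then 97.0 and 88.8 CPM, a 1.96-fold rise (log2 fold change 0.97 ± 0.12 SE, adjusted p = 0.00743), and Slc32a1, the vesicular GABA transporter, rose 1.68-fold (adjusted p = 0.0448). The lineage factors Dlx1, Dlx2 and Lhx6 had fitted values between 0.12 and 0.18, without a call.

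Synaptic genes rose on both sides of the synapse. Of 39 presynaptic genes, 14 were called higher and 0 lower (median 0.42), and of 50 postsynaptic genes, 20 were called higher and 0 lower (median 0.58), against 5.61% of all genes called higher. In the fit of 4 libraries these counts were 22 and 0, and 32 and 1. Syt4, a vesicle protein of the synaptotagmin family, was at 42.2 and 41.4 CPM at E15.5 and at 87.8 and 93.1 CPM at E17, a 2.16-fold rise (log2 fold change 1.11 ± 0.11 SE, adjusted p = 0.00657). Syt1, the calcium sensor of fast release, was at 34.8 and 36.7 and then 68.6 and 67.8 CPM, a 1.91-fold rise (adjusted p = 0.0167). The neurexins Nrxn2 and Nrxn3, presynaptic adhesion molecules, had fitted values of 0.79 and 1.14, and Nrxn3 was called (adjusted p = 0.00921). Other parts of the release machinery had smaller fitted values: Snap25 0.32 and Unc13a -0.01, neither of them called.

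Receptor subunits were among the larger postsynaptic rises. Of the GABA-A receptor subunits in the list, Gabra5 rose 3.15-fold, from 1.87 and 2.03 to 6.10 and 6.19 CPM (log2 fold change 1.66 ± 0.20 SE, adjusted p = 0.00743). Gabrb1, Gabrb2, Gabra2 and Gabra3 were also called higher, by 0.97 to 1.28 on the log2 scale. Gria2, the AMPA receptor subunit that limits calcium entry, was at 19.0 and 20.4 and then 40.1 and 37.1 CPM, a 1.96-fold rise (adjusted p = 0.00743), and Gria1, Gria3 and Gria4 were called higher as well. Grin1, the obligate NMDA receptor subunit, was at 18.1 and 18.7 and then 36.3 and 39.0 CPM, a 2.04-fold rise (adjusted p = 0.00898). Grin2b was higher in both E17 libraries, at 17.6 and 16.4 and then 26.6 and 26.7 CPM, but was not called with all libraries (adjusted p = 0.0886). The metabotropic receptor gene Grm7 rose 3.18-fold, from 44 and 23 to 104 and 114 footprints (adjusted p = 0.00946). Scaffold proteins had smaller fitted values, from -0.34 for Dlg1 and 0.16 for Dlg4 to 0.75 for Shank3, and none of Dlg1 to Dlg4 or Shank1 to Shank3 was called with all libraries.

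Voltage-gated channel genes had 15 of 43 called higher and 0 lower, with a median of 0.69. Scn2a, the sodium channel of immature axons, was at 4.10 and 4.77 CPM at E15.5 and at 9.37 and 9.27 CPM at E17, a 2.12-fold rise (log2 fold change 1.08 ± 0.12 SE, adjusted p = 0.00743), and Kcnip4, which binds A-type potassium channels, was at 3.62 and 5.36 and then 10.6 and 10.2 CPM (adjusted p = 0.0435). Kcnj6, an inward rectifier, had only 10 and 9 footprints at E15.5 and 27 and 38 at E17 (adjusted p = 0.0420). Of 51 axon guidance and adhesion genes, 15 were called higher and 0 lower, with a median of 0.47. Cntn1, contactin 1, was at 5.88 and 5.74 and then 14.4 and 17.1 CPM, a 2.69-fold rise (adjusted p = 0.00657), and Chl1, an L1 family adhesion molecule, at 50.8 and 52.1 and then 109 and 113 CPM, a 2.16-fold rise (adjusted p = 0.0173). The netrin receptor gene Unc5c rose 2.09-fold (adjusted p = 0.00868), whereas Dcc, another netrin receptor, had a fitted value of 0.05 without a call.

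Neuropeptides and proteins of dense-core granules had the highest median of all lists, 0.97, with 12 of 19 called higher and 0 lower. Nts, the precursor of neurotensin, was at 9.61 and 9.42 CPM at E15.5 and at 52.6 and 65.3 CPM at E17, a 6.14-fold rise (log2 fold change 2.62 ± 0.17 SE, adjusted p = 0.00233), the largest among called genes with a mean of 100 or more footprints in the 4 libraries. Cck, cholecystokinin, was at 16.5 and 18.8 and then 36.9 and 46.1 CPM, a 2.34-fold rise (adjusted p = 0.00743). Vgf, whose product is stored in granules, was at 2.44 and 2.79 and then 7.02 and 7.77 CPM, a 2.83-fold rise (adjusted p = 0.0324). The granule proteins Scg2, Chgb and Chga were also called higher, with fitted values of 1.5, 1.20 and 0.63, while 7 members of the list were not called. Calca, the calcitonin and CGRP gene, had 0 and 0 footprints at E15.5 and 39 and 28 at E17 and was called (adjusted p = 0.0339).

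Calmodulin partners had 7 of 22 called higher and 0 lower. Nrgn, neurogranin, which holds calmodulin in dendrites, was at 8.65 and 12.54 CPM at E15.5 and at 27.9 and 37.4 CPM at E17, a 3.12-fold rise (log2 fold change 1.64 ± 0.19 SE, adjusted p = 0.00743), and at P0 it was at 318 and 306 CPM. Vsnl1, a neuronal calcium sensor, was at 8.68 and 10.6 and then 20.6 and 24.7 CPM, a 2.37-fold rise (adjusted p = 0.00743). The calmodulin genes Calm2 and Calm3 had fitted values of 0.22 and 0.32 and were not called. Immediate early genes, which neurons switch on when active, had 0 of 16 called higher and 1 lower, with a median of -0.01, and in the fit of 4 libraries 1 of 14 was called higher and 5 lower, against 11.1% of all genes called lower. The called one, Btg2, is also an antiproliferative gene of neurogenic progenitors, and it fell from 11.1 and 11.7 to 7.46 and 6.76 CPM (adjusted p = 0.0253).

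All 23 genes of cholesterol synthesis had fitted values above 0, and 9 were called higher and 0 lower, with a median of 0.43. Cyp51, lanosterol demethylase, was at 22.5 and 22.4 CPM at E15.5 and at 40.8 and 41.1 CPM at E17, a 1.82-fold rise (log2 fold change 0.87 ± 0.11 SE, adjusted p = 0.00789). Sqle, squalene epoxidase, was at 26.8 and 23.7 and then 43.4 and 44.2 CPM, a 1.74-fold rise (adjusted p = 0.0154). Msmo1, Dhcr7 and Sc5d, which act after lanosterol, were called as well, by 0.66 to 0.83. Among the enzymes before squalene, Pmvk (0.10) and Hmgcs1 (0.25) were not called and Fdps (0.42) was called higher.

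**Figure D4:**
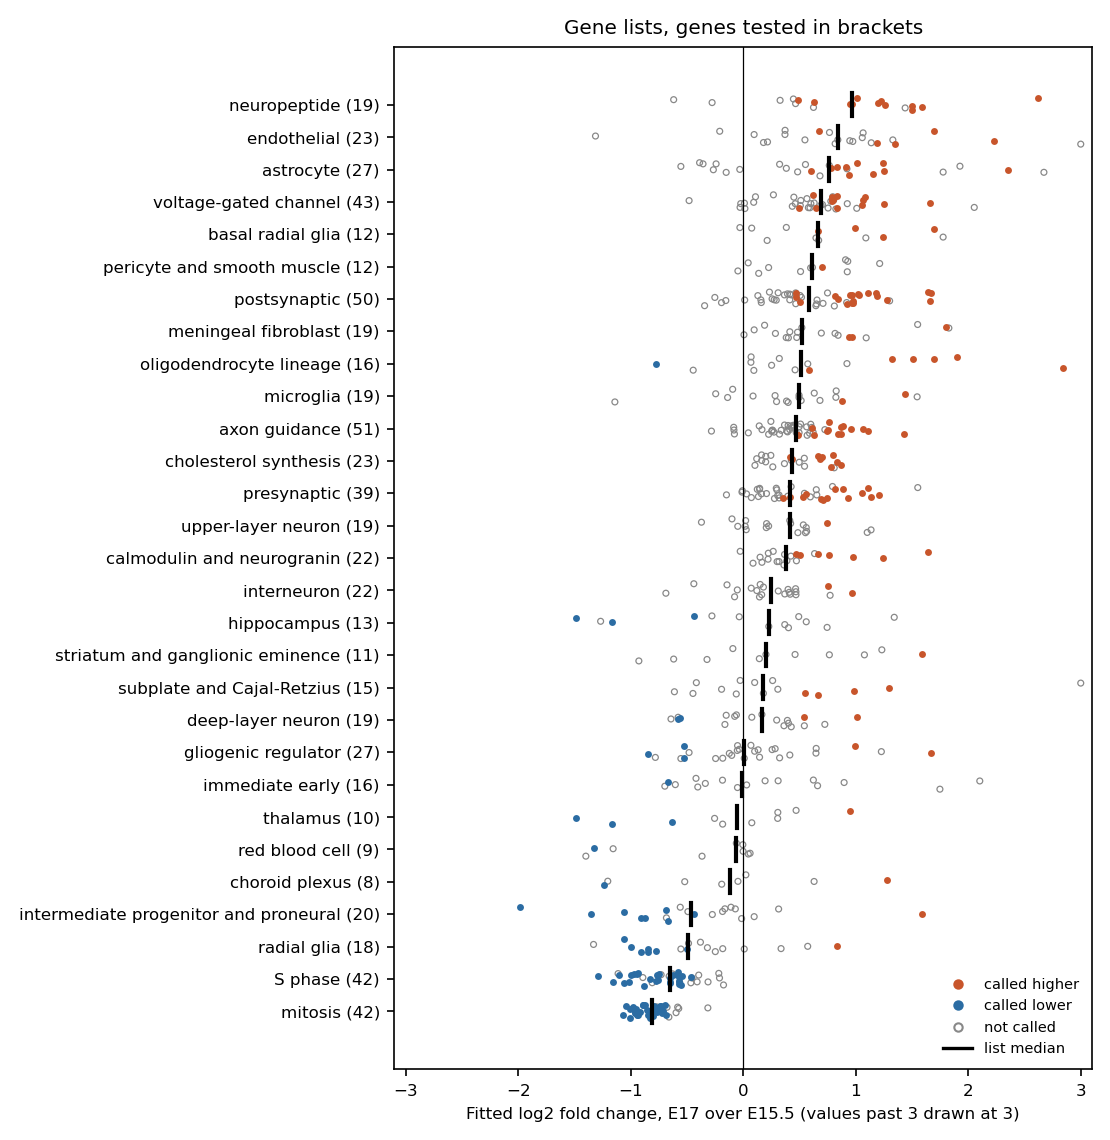
Fitted log2 fold change of E17 over E15.5 (x axis) for each tested gene of 29 lists (rows, ordered by median), with called genes filled and the list median as a bar. Mitosis and S phase genes lie wholly below 0, with medians of -0.81 and -0.65, and neuropeptide genes have the highest median, 0.97.

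The 12 largest called rises among genes with a mean of 100 or more footprints joined neuronal, glial and vascular genes. After Nts came Ly6c1, a surface antigen of brain endothelium, at 1.45 and 1.82 CPM at E15.5 and 5.78 and 9.99 CPM at E17 (4.68-fold, adjusted p = 0.0191). Its reads may be shared with the near-identical Ly6c2. Grp, gastrin-releasing peptide, was at 2.53 and 2.36 and then 9.69 and 10.3 CPM (4.05-fold, adjusted p = 0.0487). Dlk1, an imprinted Notch ligand homologue, was at 2.14 and 1.82 and then 10.1 and 5.89 CPM (3.88-fold, adjusted p = 0.0166), with the E17 replicates apart. At E14 Dlk1 had been higher, at 16.2 and 14.1 CPM. Met, the receptor of hepatocyte growth factor, which some cortical projection neurons express as they grow axons and synapses, was at 1.63 and 1.69 and then 5.84 and 6.83 CPM (3.78-fold, adjusted p = 0.00657). The others were Olig1, Olig2 and Slco1c1, described above, and Cobl (3.41-fold), an actin nucleator, Luzp2 (3.39-fold), Rit2 (3.32-fold), a neuronal small GTPase, and Pex5l (3.18-fold), which regulates HCN channels.

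The 12 largest called falls under the same rule were smaller. Nepro, a nucleolar protein that represses neuronal differentiation in early progenitors, was at 5.72 and 6.67 CPM at E15.5 and 3.11 and 1.20 CPM at E17 (3.07-fold, adjusted p = 0.0265), and its log2 fold change was -1.62 with all libraries and -0.98 without E17 replicate 2, where it was not called (adjusted p = 0.105). Lhx9, a LIM homeobox factor, was at 6.84 and 5.28 and then 2.83 and 1.58 CPM (2.81-fold, adjusted p = 0.0142). Lef1, the transcription factor of Wnt signalling, was at 8.04 and 6.71 and then 3.43 and 3.12 CPM (2.25-fold, adjusted p = 0.00743). These genes lay at low levels at E17, in contrast to Uhrf1, the best covered of the 12. Hbb-y, an embryonic globin, and Ttr, transthyretin of the choroid plexus, fell 2.50-fold and 2.36-fold, and Nhlh1, Cep112, Napepld, Cdc6, Hk2 and Fanci fell 2.56-fold to 2.19-fold. Plag1, with 62 and 42 and then 8 and 6 footprints, fell by 2.84 on the log2 scale (adjusted p = 0.0190) but lay under the count minimum.

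**Figure D5:**
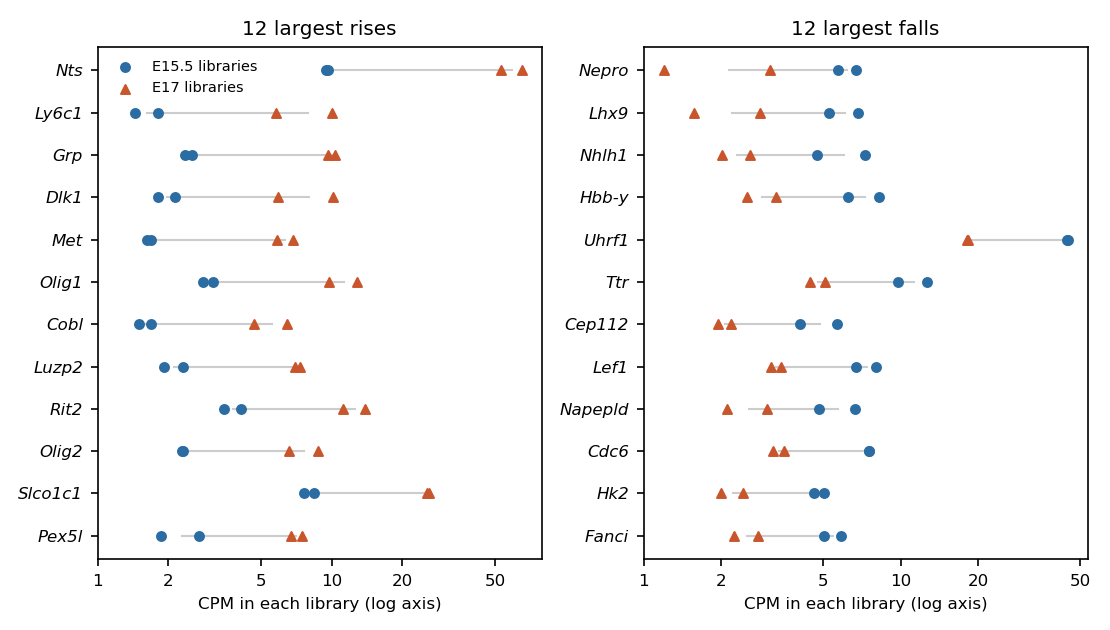
CPM in each E15.5 library (blue circles) and each E17 library (orange triangles) on a log axis for the 12 genes with the largest called rises and the 12 with the largest called falls; grey lines join the stage means. Nts rises from 9.42 and 9.61 CPM to 52.6 and 65.3 CPM; genes whose stages overlap could not be chosen.

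Several genes of non-neural cells were called higher. Against 5.61% of all genes called higher, of 23 endothelial genes, 5 were called higher and 0 lower, with a median of 0.84, and the summed level of the list was 53.8 and 48.0 CPM at E15.5 and 99.9 and 104 CPM at E17, with Slco1c1 at the highest level of the list at E17. Pltp, phospholipid transfer protein, and Flt1, a receptor of vascular endothelial growth factor, rose 2.55-fold and 2.28-fold (adjusted p = 0.0167 and 0.0423), while Pecam1 had a fitted value of 0.37 without a call. Of 19 meningeal fibroblast genes, 3 were called higher and 0 lower and all 19 fitted values were above 0, with a summed level of 89.1 and 83.0 and then 147 and 134 CPM. Igf2, an imprinted growth factor, was at 25.1 and 26.9 and then 52.3 and 48.9 CPM (adjusted p = 0.0190), and Col1a1, a fibrillar collagen, rose from 14 and 10 to 62 and 30 footprints (adjusted p = 0.0343). At E14, Igf2 had been at 234 and 225 CPM, Col1a1 at 9.81 and 10.3 CPM and Pltp at 16.3 and 19.0 CPM, all above their E17 levels. Ly6c1, Slco1c1 and Higd1b were lower at E14 than at E17. Of 19 microglia genes, 2 were called higher, among them Trem2, a lipid receptor of microglia, and 0 lower, a count near that share with all libraries. The microglia list summed to 38.7 and 31.3 and then 52.2 and 45.7 CPM. Of 12 pericyte and smooth muscle genes, Higd1b was called higher and the other 11 were not called. In the fit of 4 libraries, 14 of 21 endothelial and 7 of 11 meningeal fibroblast genes were called higher. There, so were 8 of 17 microglia genes and 5 of 9 pericyte and smooth muscle genes. None of these lists had a gene called lower in that fit, where 15.0% of all genes were called higher. The part of vascular and meningeal cells in the changes of other genes was not tested.

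Markers of blood and of neighbouring regions shifted in single members. The stages overlapped for the adult globin Hbb-bs, which was at 2192 and 2020 CPM at E15.5 and at 2093 and 2104 CPM at E17, and the red blood cell list had 0 of 9 called higher and 1 lower, the embryonic Hbb-y. Of 8 choroid plexus genes tested, Ttr was called lower and Enpp2 higher, and the list summed to 14.6 and 11.8 and then 8.32 and 7.66 CPM, with Slc4a5 at 0 in all 4 libraries. Ttr made up most of this sum, and the other 7 genes tested summed to 1.87 and 1.90 CPM at E15.5 and 3.72 and 2.48 CPM at E17. Of 13 hippocampus genes, 0 were called higher and 3 lower (Lhx9, Lef1 and Neurod1), while the median was 0.23 and the list summed to 962 and 1017 and then 1346 and 1465 CPM. Mef2c, which also stands in the upper-layer list and is described above, held most of this sum. In the fit of 4 libraries, 2 of 10 hippocampus genes were called higher and 4 lower. Of 10 thalamus genes, 1 was called higher (Cdh6) and 3 lower (Lhx9, Lef1 and Tcf7l2), and of 11 genes of the striatum and ganglionic eminence, 1 was called higher (Penk) and 0 lower. Lhx9 and Lef1 stand in both the hippocampus and the thalamus list. Whether the border of the dissection differed between stages was not tested.

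Against the earlier step of the same length, from E12.5 to E14, which shares no library with this one, the change from E15.5 to E17 differed in 37 genes (0.274% of 13484), 26 in the positive and 11 in the negative direction, with 2250 genes at an unadjusted p under 0.05. No gene was called for this difference in limma-voom when any 1 library of these 4 stages was left out, and 25 were called by edgeR and 404 by DESeq2. Among them were Dkk3, a secreted relative of Wnt inhibitors, and Cdh10, a type II cadherin, both of which rose between E15.5 and E17. Dkk3 was at 2.59 and 2.58 CPM at E15.5 and 7.43 and 7.92 CPM at E17, a 2.95-fold rise (adjusted p = 0.00533), and its difference between the steps was 1.76 ± 0.18 SE (adjusted p = 0.0366). Cdh10 was at 4.67 and 4.90 and then 9.59 and 11.3 CPM, and its difference was 1.67 ± 0.23 SE (adjusted p = 0.0426). For the glial genes Olig1 and Tnc the difference between the steps was 1.53 ± 1.20 SE and 0.53 ± 0.35 SE and was not called (adjusted p = 0.590 and 0.505).

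Of the genes the study followed by other methods, Nes was at 49.6 and 49.3 CPM at E15.5 and at 35.7 and 34.3 CPM at E17, a 1.41-fold fall (adjusted p = 0.0246). Bcl11b, a factor of subcortical projection neurons, was at 73.2 and 62.8 and then 45.7 and 41.3 CPM, lower in both E17 libraries without a call. Eif4ebp1, which restrains cap-dependent translation, was at 3.16 and 2.7 and then 2.06 and 2.59 CPM, and its log2 value of -0.36 ± 0.18 SE did not pass the test (adjusted p = 0.272).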

How the data were processed

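Neocortex footprint counts were deposited by the authors as 1 table of whole-number counts per gene and library, not normalized. According to the methods and labels, the authors trimmed adapters, collapsed duplicate reads, removed rRNA, tRNA and snoRNA reads and aligned the rest with STAR (2.7.0 in the labels) to GENCODE M12, keeping multi-mapping reads, so genes with near-identical copies are uncertain. No build is named in the table. Of 22373 gene IDs, 22274 matched a symbol.

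Genes with at least 32 footprints summed over a stage in at least 1 stage were kept, scaled by TMM (edgeR 4.0.16) and fitted with limma-voom 3.58.1 in R 4.3.3, with stage as the only term over all 10 libraries and 5 residual degrees of freedom. A gene was called at a Benjamini-Hochberg adjusted p of 0.05 and a change of 25%. edgeR's quasi-likelihood test and DESeq2 1.42.0 were alternatives. Simulated counts were used to try limma-voom, with and without sample quality weights, edgeR and DESeq2. The other scalings and filters, the replicate block and fits with a library left out were not simulated, nor were lists and promoters. Library totals ran from 7544404 to 36129988 counts; precision for genes near 32 footprints is limited by counting. Same-numbered libraries did not deviate together in every pair of stages (correlations of -0.63 to 0.43 over 4559 genes, 0.25 for E15.5 with E17), so numbers were not taken as pairs.

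Named genes were the 12 largest rises and falls among called genes averaging 100 counts or more with no overlap between stages, up to 3 called members each way of each list, Nes, Bcl11b and Eif4ebp1, and the 3 most positive and negative differences between steps; further members are named to describe their lists. The members and lists were chosen with earlier results of these data known. Ahsp was not matched. Results of some list members are not reported here. Promoter sequences came from RefSeq, build GRCm38.p6, for 10376 symbols of the genes tested. Alternatives covered scaling, the count filter, the test, sample weights, the libraries fitted and each library left out.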

Additional observations from a re-analysis of the deposited data

Results flagged for a closer look

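The change from E15.5 to E17 was tested against that from E12.5 to E14, and the 3 genes with the most positive and the 3 with the most negative called difference are given here, on the log2 scale from limma-voom.

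Dkk3 differed by 1.76 and Fn1 by 1.76 (adjusted p = 0.0366 for both). Fn1, fibronectin, was at 53.4 and 58.6 CPM at E12.5, 29.5 and 34.0 CPM at E14, 7.41 and 6.54 CPM at E15.5 and 13.9 and 13.0 CPM at E17, so it was lower at E14 than at E12.5 and rose between E15.5 and E17. Cdh10 differed by 1.67 (adjusted p = 0.0426).

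Ttr differed by -3.18 (adjusted p = 0.0366). It was at 309 and 258 CPM at E12.5, 1080 and 1083 CPM at E14, 12.7 and 9.80 CPM at E15.5 and 4.45 and 5.07 CPM at E17. Hivep2, a zinc finger factor, differed by -1.63 (adjusted p = 0.0366): it was at 2.15 and 2.32 CPM at E12.5, 5.83 and 5.67 CPM at E14, 26.9 and 26.2 CPM at E15.5 and 22.3 and 21.4 CPM at E17, and its change between E15.5 and E17 was not itself called (adjusted p = 0.107). Pdzrn3, a PDZ and RING domain protein, differed by -1.51 (adjusted p = 0.0463), at 5.30 and 5.49 CPM at E15.5 and 3.72 and 3.68 CPM at E17.

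Over the other settings the differences ran from 1.68 to 1.87 for Dkk3, 1.66 to 1.87 for Fn1, 1.55 to 1.79 for Cdh10, -3.36 to -2.98 for Ttr, -1.69 to -1.58 for Hivep2 and -1.64 to -1.41 for Pdzrn3, and their adjusted p reached 0.254 at most.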

How the results depend on the processing

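No value of the 93 named genes or of the 6 named differences between steps reversed its direction. Other called genes were not checked for this. The count of 1219 genes called between E15.5 and E17 was 773 with no filter on low counts, 3717 with sample quality weights, 2810 without either P0 library, and 3267, 3244 and 1930 in fits of only the 4 libraries with limma-voom, edgeR and DESeq2. Leaving out 1 library at a time gave 0 to 2814 genes: 736 and 748 without an E12.5 library, 772 and 770 without an E14 library, and 2802 and 2814 without a P0 library. Of the calls, 62.1% were rises with TMM, 64.9% with DESeq2 size factors and 71.0% with total counts only, where the median of all genes was 0.06. With the replicate block the count was 819, and 14 of the 90 called named genes lost their call (Cdh6, Enpp2, Fezf2, Foxp1, Gpr17, Hepacam, Hpcal4, Kcnj6, Neurod1, Nhlh1, Pdzrn3, Slc32a1, Sox3 and Tcf7l2), as did the 6 named differences between steps (adjusted p = 0.0929).

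The 37 genes called for the difference between steps became 81 with DESeq2 size factors, 3 (1 positive and 2 negative) with total counts, 0 with no filter, 147 at 100 or more footprints, 404 with DESeq2, 1303 with quality weights, 1042 without P0, 0 with the replicate block, and 0 to 1059 with 1 library left out. Where it was 0, 1466 to 2487 genes had an unadjusted p under 0.05.

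Over all settings, the 90 named genes with a call kept it in 1558 values and lost it in 510, and the 3 without one (Bcl11b, Eif4ebp1 and Hivep2) stayed without it in 62 values and 1 of them gained it in 7. Of the losses, 350 came from leaving out an E15.5 or E17 library. Leaving out any library lowers the residual degrees of freedom, and leaving out an E15.5 or E17 library also leaves 1 library at that stage. What accounts for the losses was not tested. For list medians, a spread was taken from the changes between E15.5 and E17 libraries of the same number. As numbers were otherwise not taken as pairs, it is only a rough yardstick. List medians stayed within this spread in 550 values and moved further in 117. Changes of sign were limited to the immediate early, red blood cell, thalamus, gliogenic, striatum, hippocampus and choroid plexus lists. The depth limits calls for genes near 32 footprints.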

Other observations

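The families in this section were picked by symbol after their values had been seen, so no test of a family is given, and adjusted p-values are those of single genes over all genes tested. Protocadherins, adhesion molecules that give neurons their surface identity, had many calls. All 35 alpha and gamma protocadherins tested had fitted values above 0, and 33 were called higher. Each of these genes splices its own first exon to constant exons shared by its cluster, and multi-mapping reads were kept in the counts, so the 33 calls are not separate measurements. Without them the number of genes called higher was 724 instead of 757. The beta protocadherins, which have no shared exons, had 4 of 18 called higher and all 18 above 0, with a median of 0.80. Outside the clusters, 8 of 12 protocadherins were called higher, such as Pcdh7, at 6.27 and 6.84 CPM at E15.5 and 13.0 and 13.0 CPM at E17 (adjusted p = 0.0112), and Pcdh10 (log2 fold change 0.90).

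Subunits of the sodium pump, which restores the ion gradients that channels use, were called higher in 4 of 7 cases and lower in 0. Atp1b1 was at 12.9 and 12.9 CPM at E15.5 and 37.3 and 42.5 CPM at E17, a log2 fold change of 1.63 ± 0.30 SE (adjusted p = 0.0190). Proteins of folding and translocation in the endoplasmic reticulum had 12 of 20 called higher and 0 lower (median 0.60). Canx, calnexin, was at 68.3 and 67.7 and then 109 and 117 CPM, and Calr, calreticulin, at 52.6 and 51.5 and then 88.3 and 91.9 CPM. Among RNA-binding proteins, all 20 hnRNP genes had fitted values below 0 (median -0.37), with 2 called with all libraries and 13 in the fit of 4 libraries. Of 43 RBM genes, 9 were called lower and 1 higher, with 6 fitted values above 0. Of 11 SR splicing proteins 1 was called lower, and of 34 genes of spliceosome subunits 3 were. Ptbp1, a splicing repressor of progenitors whose loss from neurons changes their exon use, was at 190 and 178 CPM at E15.5 and 84.2 and 91.8 CPM at E17, a 2.09-fold fall (log2 fold change -1.07 ± 0.17 SE, adjusted p = 0.0126), and Ewsr1, an RNA-binding protein, fell 2.04-fold (adjusted p = 0.0395).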
